A study of Mus musculus with 2 samples.

Results

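The genes described here are those of the pyruvate dehydrogenase complex and of its kinases: Pdk1, Pdk2, Pdk3, Pdk4, Pdha1, Pdhb, Dlat and Pdhx. They were followed in interscapular brown fat, a heat-producing fat depot, of wild-type (WT) and double-knockout (DKO) mice. Every probe that carries one of these 8 gene names was taken, whatever its value, although the 8 genes themselves were picked with earlier results of these data known. That gave 9 of the 41174 distinct probes on the array, for 6 of the 8 genes. No probe carried the name Pdk1 or Dlat. A further 4 probes carry another name but list an accession of one of the 8 genes. They cover Pdk1 and Dlat, they are called linked probes here, and their values are given apart.

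The pyruvate dehydrogenase complex sits in the mitochondrial matrix and turns pyruvate, the end product of glycolysis, into acetyl-CoA. This step commits carbohydrate carbon to oxidation or to fat synthesis and is not reversed in mammals. Pyruvate dehydrogenase kinases phosphorylate the E1 alpha subunit and switch the complex off, and dedicated phosphatases switch it back on. In fasting and under a high supply of fatty acids, Pdk4 transcript is known to rise in muscle, liver and fat, which spares glucose.

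The labels describe 4 male C57BL/6 mice per genotype, 2 to 3 months old, taken near circadian time 20. WT mice carry no knockout, and the genes lost in DKO mice include Rora, which encodes a nuclear receptor that binds DNA at ROR response elements. Each of 2 Agilent whole mouse genome arrays held both genotypes, with DKO labelled in Cy5 on one and in Cy3 on the other. How the RNA of the mice was combined was not stated in the labels, so each genotype counted as 1 replicate, which allows no test. Ratios are DKO over WT on the log2 scale, given per array in the order DKO in Cy5 then DKO in Cy3, or as mean ± SD with n = 2 arrays. The SD includes dye and measurement error. Whether it also holds spread between extracts or animals is unknown, since the labels do not say if both arrays used the same extracts.

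A gene was called higher or lower by size alone. The mean difference had to be 2-fold or more, and each array by itself had to show 1.5-fold or more in the same direction. The signal also had to be well above background on both arrays in the genotype where it was higher. Over 28675 measured genes and transcripts, 0.101% were called higher and 0.0244% lower. The median ratio of all of them was 0.00. For the 2969 whose average log2 intensity reached 9, the median SD between arrays was 0.17. Rora, which bears on the labels, read −0.38 ± 0.04 and −0.47 ± 0.10 with its 2 probes, and the scanner software's own ratios, which carry no added offset, gave −0.96 and −1.52. Whether those probes lie in the deleted part of the gene is not given, and a probe outside it would check nothing.

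Pdk4 (gene ID 27273) was the member that changed, so its promoter is shown beside that of Pdk2 (gene ID 18604), a kinase whose ratio lay near 0. Both windows come from RefSeq on GRCm38.p6 and run from 250 bases before to 50 bases after the annotated transcription start, 5′ to 3′ on the minus strand. Pdk4 lies at chr6:5496229-5496528 and Pdk2 at chr11:95041322-95041621, the upstream of its 2 annotated starts. Capitals mark CG dinucleotides, the sites of DNA methylation in mammals.
Pdk4: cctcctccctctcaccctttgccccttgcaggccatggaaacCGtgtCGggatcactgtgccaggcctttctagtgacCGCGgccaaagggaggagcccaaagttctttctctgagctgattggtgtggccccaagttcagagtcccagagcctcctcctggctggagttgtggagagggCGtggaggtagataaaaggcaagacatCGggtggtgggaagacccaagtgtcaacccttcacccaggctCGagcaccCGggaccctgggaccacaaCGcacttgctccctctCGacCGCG
Pdk2: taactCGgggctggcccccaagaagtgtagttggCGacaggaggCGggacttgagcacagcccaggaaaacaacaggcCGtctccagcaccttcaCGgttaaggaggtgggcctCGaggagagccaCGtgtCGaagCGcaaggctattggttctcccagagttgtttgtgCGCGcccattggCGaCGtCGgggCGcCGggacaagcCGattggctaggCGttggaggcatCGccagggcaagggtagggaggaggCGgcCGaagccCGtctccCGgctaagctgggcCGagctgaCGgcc

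The Pdk4 window held 12 CG dinucleotides and the Pdk2 window 25, against a median of 7 over 32851 mouse promoter windows of the same length. The other Pdk2 window held 13. Windows of the subunit genes held 21 for Pdha1 (gene ID 18597), 24 for Pdhb (gene ID 68263), 18 for Dlat (gene ID 235339) and 28 for Pdhx (gene ID 27402). Pdk3 (gene ID 236900) held 35, and the 2 windows of Pdk1 (gene ID 228026) held 25 and 2. CG counts were added after the data were seen and describe sequence only. On either strand, the nuclear receptor half-site AGGTCA was found in 0 of the 10 windows of these 8 genes and in 16.3% of all windows. Its longer ROR-type form TAGGTCA, which contains it, was in 0 of 10 and in 2.61% of all, and the forkhead motif GTAAACA was in 0 of 10 and in 3.65% of all. These counts say only that the letters are not in these windows.

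Pdk4, the kinase isoform most closely tied to fasting and fatty acid use, was higher in DKO on both arrays. Its main probe read 1.42 with DKO in Cy5 and 1.26 with the dyes reversed. The mean was 1.34 ± 0.11, a 2.53-fold difference, and it was the 14th highest of all measured genes and transcripts and the 11th of the 14101 with a gene symbol. The normalised log2 level is the probe's brightness after background and dye correction, with average intensities matched between the arrays by quantiles. For this probe it was 12.68 and 12.74 in DKO and 11.26 and 11.48 in WT. Both DKO levels lay above both WT levels, and the gap was wider than the spread between arrays. The share of all measured genes whose levels do not overlap is not given, so here and below non-overlap only describes the probe. Before normalisation the spot's mean signal was 8197 in DKO against 1978 in WT on the first array and 6103 against 3227 on the second. Local backgrounds were between 58 and 75, so the probe was far above background in both genotypes, and it was not saturated. The scanner software gave 1.45 and 1.27 for the same spots, with its own error estimates of 0.20 and 0.19 on the log2 scale.

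A second probe named Pdk4 gave no usable value. It was designed on a RIKEN cDNA clone rather than on the RefSeq transcript, and its mean signals of 55.3 and 67.7 in DKO and 61.4 and 58.3 in WT sat at the local background of 56 to 71. It was not well above background in either genotype on either array. The Pdk4 result therefore rests on 1 probe, and which part of the transcript each probe covers was not stated in the files.

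**Figure D1:**
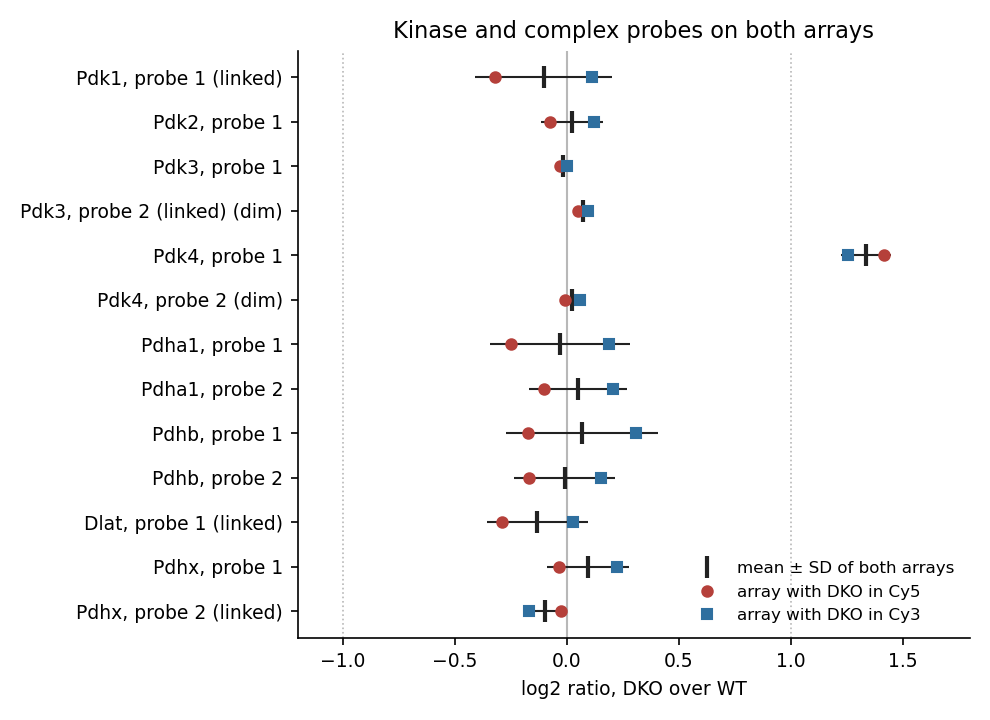
Log2 ratio of DKO over WT for each of the 9 probes named for a member and the 4 linked probes. Circles are the array with DKO in Cy5, squares the array with DKO in Cy3, and the bar and line give the mean ± SD of both arrays (n = 2). Dotted lines mark a 2-fold difference, and "dim" marks probes not well above background in either genotype. The main Pdk4 probe, at 1.42 and 1.26, is the one beyond a dotted line.

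No other kinase was called in either direction. Pdk2, an isoform found in most tissues, read −0.07 and 0.12, with a mean of 0.03 ± 0.14. Its normalised levels were 7.87 and 7.98 in DKO and 7.94 and 7.86 in WT, so the genotypes overlapped. Pdk3, an isoform best known from testis, brain and kidney, was dim: its mean signals ran from 93.8 to 128 over backgrounds of 57 to 71. Its ratios were −0.03 and 0.00, with a mean of −0.01 ± 0.02, and the added offset of 50 pulls such dim ratios toward 0. The software's ratios for Pdk3 were −0.05 and 0.08, with error estimates of 0.24 and 0.31. A difference in Pdk3 smaller than those errors was not detectable on these arrays.

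Pdk1, the isoform known as a target of hypoxia signalling, was reached only through a linked probe, named for the cDNA BC027196. It read −0.32 and 0.11, with a mean of −0.10 ± 0.30. The linked Pdk3 probe was not well above background. Over the 3 kinases with a named probe, the median ratio was 0.03, and it was 0.01 over 4 kinases with the linked probes. Of these 4 kinases 1 was called higher, which was Pdk4, and 0 were called lower.

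The subunits of the complex itself read near 0, and the genotypes overlapped for every named probe. The catalytic E1 component is a tetramer of the alpha subunit, encoded by Pdha1 and the target of the kinases, and the beta subunit, encoded by Pdhb. The brighter Pdha1 probe read −0.25 and 0.19, with a mean of −0.03 ± 0.31, and the dimmer one −0.10 and 0.21, with a mean of 0.05 ± 0.22. The brighter Pdhb probe read −0.17 and 0.31, with a mean of 0.07 ± 0.34, and the dimmer one −0.17 and 0.15, with a mean of −0.01 ± 0.23. Both probes of each gene thus gave a mean within 0.1 of 0, on strong signals of 2045 to 7310. For Pdha1 the normalised levels were 11.30 and 11.46 in DKO and 11.55 and 11.27 in WT, and for Pdhb they were 12.52 and 12.81 in DKO and 12.69 and 12.50 in WT. In both genes the genotypes overlapped.

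Pdhx, which encodes the E3-binding protein that docks dihydrolipoamide dehydrogenase to the core, read −0.03 and 0.23, with a mean of 0.10 ± 0.18. Its named probe was dim, with mean signals from 157 to 197. A brighter linked probe for Pdhx read −0.03 and −0.17, with a mean of −0.10 ± 0.10, so the 2 probes differ in sign and their means lie within 0.2 of each other. For the linked probe the normalised levels were 10.31 and 10.31 in DKO and 10.33 and 10.48 in WT, so the genotypes did not overlap, by a margin of under 0.03. Dlat, the E2 core enzyme that forms acetyl-CoA, had a linked probe at −0.29 and 0.03, with a mean of −0.13 ± 0.22. Another probe, which the file describes as dihydrolipoamide S-acetyltransferase without linking it to a RefSeq accession, read −0.37 and −0.15, with a mean of −0.26 ± 0.15, and both its DKO levels lay below both WT levels. The search of descriptions gave 1 more probe, which read −0.21 and 0.28, with a mean of 0.03 ± 0.34, and there the genotypes overlapped. Both probes were found by their descriptions, after the data were seen, and are not counted among the members. Over the 3 subunits with a named probe the median was 0.07, and over 4 with the linked probes it was −0.06. None of them was called in either direction.

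**Figure D2:**
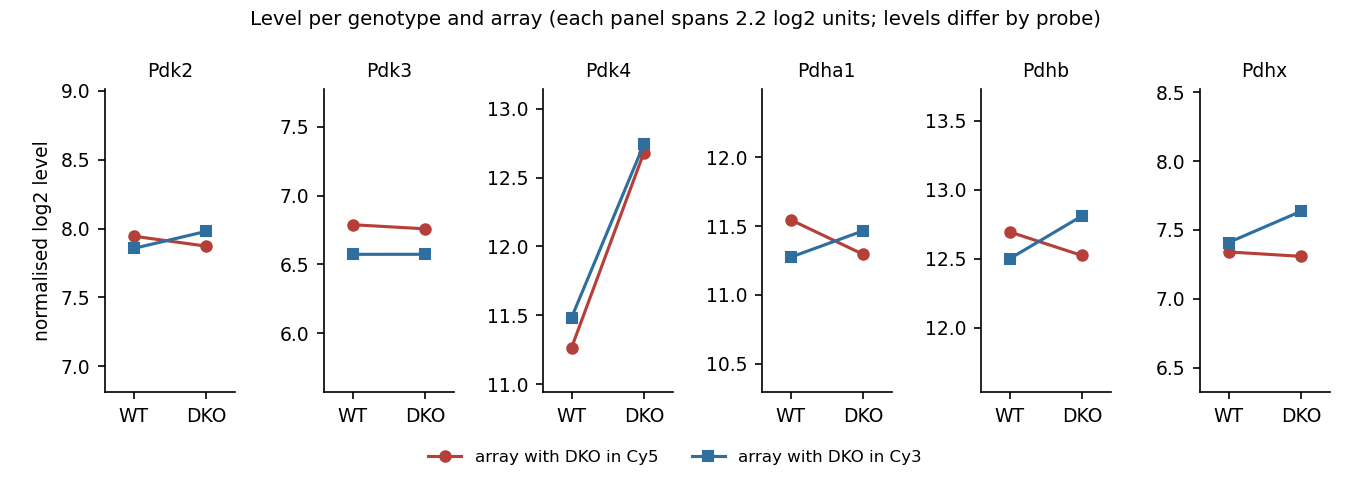
Normalised log2 level of the brightest named probe of each of the 6 genes, in WT and DKO. Circles joined by a line are the array with DKO in Cy5 and squares the array with DKO in Cy3, and each panel spans the same range, although the level of one probe cannot be set against that of another. Both lines rise for Pdk4, from 11.26 and 11.48 to 12.68 and 12.74, while the lines cross for Pdk2, Pdha1 and Pdhb.

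All 5 genes other than Pdk4 read below 0 with DKO in Cy5 and above 0 with DKO in Cy3, by as little as 0.03 and 0.00 for Pdk3. Across all measured genes and transcripts 62.9% changed sign between the arrays, and 29.3% did so in that order. Only 19.2% were above 0 on both arrays, as Pdk4 was, and 17.9% were below 0 on both. The arrays shared little: over the 14101 measured genes with a symbol, Pearson's r between them was 0.08, across genes, which are not independent replicates. With each array centred on its median in place of the intensity-dependent correction, 5 of the 6 genes read above 0 on both arrays. Of all measured genes and transcripts 23.0% did so, and of those whose average log2 intensity reached 9, 31.5%. The means under that setting were 0.12 for Pdk2, 0.02 for Pdk3, 0.11 for Pdha1, 0.22 for Pdhb and 0.16 for Pdhx, and 1.48 for Pdk4, so the signs of Pdk3 and Pdha1 turned. The median of all genes whose average log2 intensity reached 9 was itself 0.14 there. No direction is therefore given for the 5 genes.

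**Figure D3:**
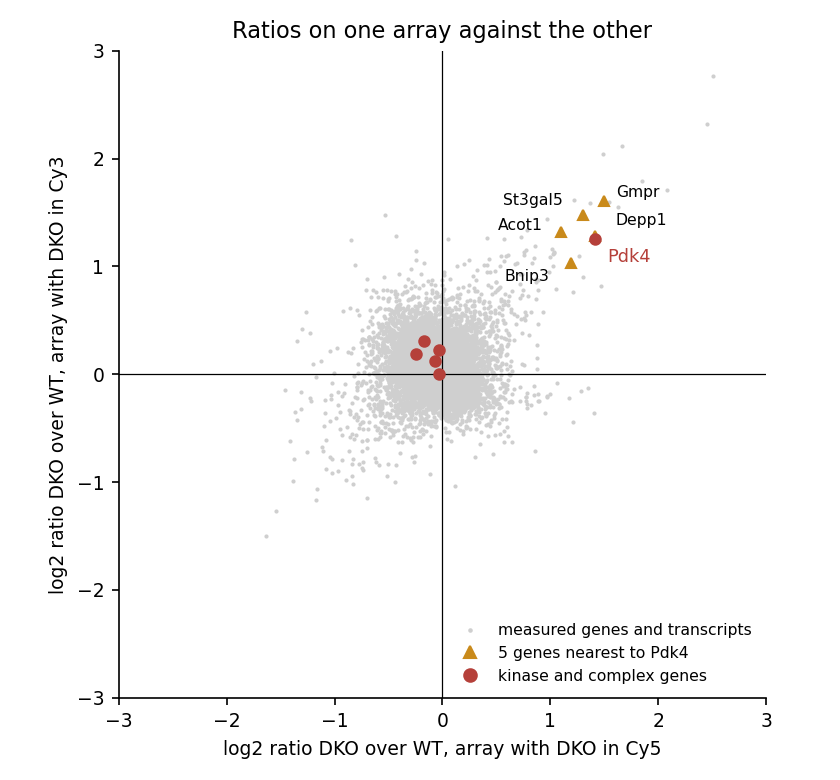
Log2 ratio of DKO over WT on the array with DKO in Cy5 (horizontal) against the array with DKO in Cy3 (vertical) for all 28675 measured genes and transcripts (grey). Red circles are the 6 kinase and complex genes, and triangles the 5 genes whose pair of ratios lies nearest to that of Pdk4. The other 5 red points sit within the grey mass near 0, and Pdk4 sits far from it in the upper right.

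The measured genes with a symbol whose 2 ratios lay nearest to those of Pdk4 were Depp1, St3gal5, Bnip3, Acot1 and Gmpr. Likeness here is the Euclidean distance over 2 arrays, so it shows an effect of similar size and nothing of shared control. Depp1, a FOXO-responsive gene also known from progesterone-treated endometrium, read 1.41 and 1.28, at a distance of 0.03. St3gal5, the sialyltransferase that makes the ganglioside GM3, read 1.30 and 1.48. Bnip3, a mitochondrial receptor for autophagy, read 1.19 and 1.04, Acot1, a cytosolic acyl-CoA thioesterase, 1.1 and 1.32, and Gmpr, a guanosine monophosphate reductase, 1.5 and 1.60.

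Genes that act with the complex or on it were examined next, 17 in all, of which 13 were measured. On both arrays 2 were above 0 and 2 below 0, against 19.2% and 17.9% of all measured genes and transcripts. None of the 13 was called, and their median was 0.01. The brightest were Mpc1 (−0.16 ± 0.32) and Mpc2 (0.01 ± 0.34), the subunits of the carrier that brings pyruvate into mitochondria. Dld, the E3 dehydrogenase that the complex shares with its sister enzymes, read 0.35 and 0.33, with a mean of 0.34 ± 0.02, and Sirt5, a mitochondrial deacylase, read −0.44 and −0.30, with a mean of −0.37 ± 0.10. Both were picked out after their values were seen, and of the 2 Dld probes only the brightest measured one is given. The phosphatase genes Pdp1 and Pdp2 matched no probe in use, so the enzymes that oppose the kinases were not examined. Pdpr, which encodes the regulatory subunit of the phosphatase, read 0.03 ± 0.19 from a dim probe.

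Other enzymes that make or use pyruvate and acetyl-CoA spread more widely: of 19 listed genes 16 were measured, 1 was called higher and 1 lower, and the median was −0.16. On the single arrays the median was −0.35 and −0.11, and with median centring it was −0.01. Pck1, the cytosolic enzyme that forms phosphoenolpyruvate and feeds glyceroneogenesis in fat, rose with ratios of 1.63 and 1.55, a mean of 1.59 ± 0.06. Acss2, which makes cytosolic acetyl-CoA from acetate, fell with ratios of −1.38 and −0.99, a mean of −1.19 ± 0.28, and its other probe read −0.84 ± 0.02. In all, 7 of the 16 were below 0 on both arrays and 3 were above, against 17.9% and 19.2% of all measured genes and transcripts. Among the 7, and named after their values were seen, Acly, which makes cytosolic acetyl-CoA from citrate, read −1.25 and −0.72, and Me1, the cytosolic malic enzyme, −1.03 and −0.79. Neither reached the 2-fold rule. Pcx, which carboxylates pyruvate to oxaloacetate, read −0.46 ± 0.19. The lactate dehydrogenase gene Ldha read 0.60 and −0.35, so no direction can be given.

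**Figure D4:**
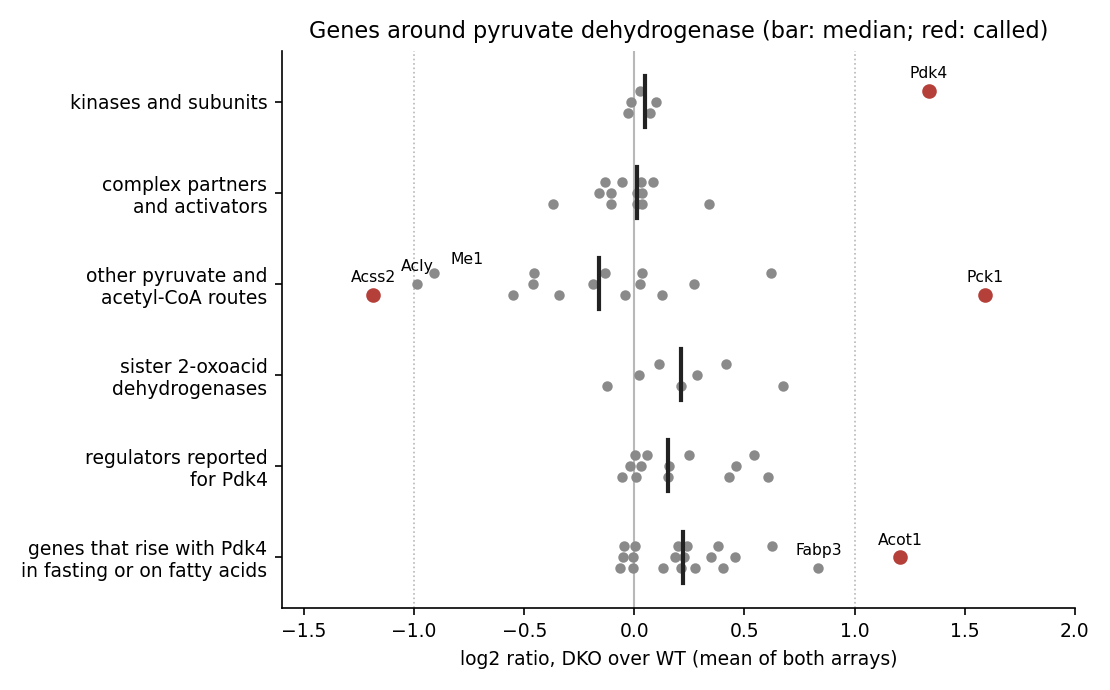
Mean log2 ratio of DKO over WT for each measured gene of 6 groups: the kinases and subunits, and the 5 lists around them. Points are genes, shifted vertically for legibility, black bars are group medians, red points are called genes and dotted lines mark a 2-fold difference. The medians lie between −0.16 and 0.22, and 4 genes are called: Pdk4, Pck1, Acot1 and, downward, Acss2.

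The sister 2-oxoacid dehydrogenases are built like pyruvate dehydrogenase and act on 2-oxoglutarate and on branched-chain keto acids. Of 9 such genes 7 were measured and none was called. Their median was 0.21, with −0.18 and 0.54 on the single arrays, and 5 of the 7 changed sign between arrays. The brightest were Bckdha (0.21 ± 0.55), the branched-chain E1 alpha subunit, and Dlst (0.02 ± 0.44), the E2 enzyme of the 2-oxoglutarate complex. Bckdk, the kinase of the branched-chain complex and the nearest relative of the Pdk genes on the list, read −0.69 and 0.44.

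Factors that the literature ties to Pdk4 transcription had a median of 0.15, with 13 of 17 measured and none called. On the single arrays the median of the 13 was 0.10 and 0.22. It was 0.08 with all measured probes of a gene averaged, and 0.27 with median centring. Of the 13, 7 were above 0 on both arrays and 1 was below, against 19.2% and 17.9% of all measured genes and transcripts. The brightest were Cebpb (0.46 ± 0.59), at 0.88 and 0.05, and Pparg (−0.02 ± 0.00). Ppara, the fatty acid receptor that is known to induce Pdk4, read 0.63 and 0.58, and the coactivator gene Ppargc1a read 0.52 and 0.57. A dimmer probe of Ppargc1a read lower, at 0.14 ± 0.07. Foxo1, a forkhead factor held in check by insulin, read 0.21 and 0.29, and the glucocorticoid receptor gene Nr3c1 read 0.10 and 0.02. These last 4 were chosen after their values were seen and lay below the 2-fold rule. Foxo1 and Nr3c1 have 2 probes each, and only the brightest measured one is given.

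Genes that are known to rise with Pdk4 in fasting or on fatty acids had a median of 0.22, with 20 of 21 measured. Of these, 12 were above 0 on both arrays and 2 were below, against 19.2% and 17.9% of all measured genes and transcripts. Acot1 was called, with a mean of 1.21 ± 0.16. Fabp3, a fatty acid binding protein of heart, muscle and brown fat, read 0.74 and 0.93, and Lpl, the lipoprotein lipase, 0.73 and 0.52, neither of them called and both named after their values were seen. Other genes of the same response, also named after their values were seen, lay near 0: Cpt1a read −0.05 ± 0.01 and Plin2 −0.06 ± 0.00. The Cpt1a probe was dim, with an average log2 intensity of 7.08, so the offset pulls its ratio toward 0. Its mean by the software's ratios was −0.09. On the single arrays the list's median was 0.06 and 0.36, and with median centring it was 0.35.

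Cell type markers were read beside Pdk4. Of 18 measured skeletal muscle genes, 13 were above 0 on both arrays and 1 was below, against 19.2% and 17.9% of all measured genes and transcripts. Among the 18, 2 were called higher (Eno3, at 1.21 ± 0.33, and Mb, at 1.0 ± 0.39), and the median was 0.62. The summed normalised signal of the 18 was 24401 and 28090 in DKO and 18164 and 16218 in WT. All 12 brown adipocyte markers were measured and their median was 0.04. Of these, 5 were above 0 on both arrays, 2 were below and 5 changed sign, against 19.2%, 17.9% and 62.9% of all measured genes and transcripts. Dio2 (1.89 ± 0.32), which activates thyroid hormone, and Elovl3 (1.02 ± 0.02), a fatty acid elongase, were called higher. Ucp1, the uncoupling protein that defines brown fat, was among the bright probes in both genotypes, at a ratio of 0.73 ± 0.00. The sums of the 12 brown adipocyte markers were 220943 and 236285 in DKO and 238313 and 202940 in WT. These sums include the 2 brightest markers, which had saturated spots, so they are a poor measure of brown adipocyte signal. Of the white adipocyte markers 5 of 7 were measured, with a median of −0.05, and Lep (−1.08 ± 0.42) was called lower. Red cell markers had a median of −0.46, and the medians of macrophage, endothelial, fibroblast, nerve and liver markers lay between −0.14 and 0.07. Pdk4 is also abundant in skeletal muscle, and the part of these markers in its ratio was not tested. In tissue RNA, a change in the share of a cell type and a change in RNA per cell cannot be told apart.

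Other offsets, signal summaries, normalisations and ratio sources, and each array alone, gave Pdk4 ratios from 1.26 to 1.48, all past 2-fold. The dim filters and the choice of probes could not alter the value, since Pdk4 has 1 measured probe, and the software's ratios and the series value table are the same data. Pdk4 would not pass a 3-fold rule, under which 7 genes and transcripts in all were called higher.

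**Figure D5:**
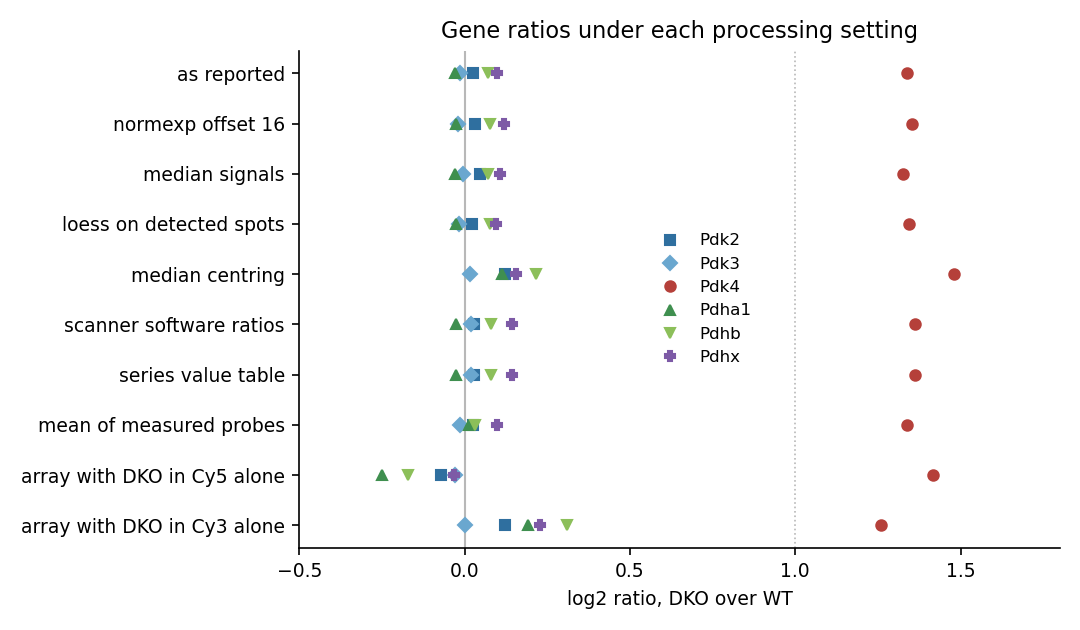
Log2 ratio of DKO over WT for the 6 genes with a named probe, under the reported setting and 9 of the other settings, among them each array alone. The dotted line marks a level 2-fold higher in DKO. Pdk4 stays between 1.26 and 1.48, and the other genes lie on either side of 0 depending on the array.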

How the data were processed

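RNA of both genotypes was hybridised to 2 arrays with reversed dyes, and the labels give conflicting amounts of input RNA. The authors extracted images with Agilent Feature Extraction 7.5, per the labels. The deposited spot files hold signal and background as linear intensity, and dye-normalised log10 ratios of red over green with an error for each, per the file headers. Log2 ratios make up the deposited series value table, whose columns, both with a median of 0, matched red over green in the spot files to within 0.001 (40962 of 41001 values on one array, 41101 of 41141 on the other). Which later steps shaped that table was not stated in the labels.

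In limma 3.58.1 (R 4.3.3), mean signals were background-corrected by normexp (offset 50) and loess-normalised within arrays without weight on control spots. The offset shrinks ratios of dim probes. For the normalised levels alone, average intensities were then quantile-normalised between the arrays, which left the ratios unchanged. Outlier spots were left out (none of a member), saturated spots kept, and ratios of the DKO-in-Cy3 array reversed in sign. Well above background is the deposited flag (2.6 background SDs). Of 40979 probes in use, a RefSeq gene table (GRCm38.p6) named 11387 through their accession, 2287 through a symbol, 1299 through an earlier symbol and 5772 through a linked accession, while 20234 kept the file's name. Accession matches can bring a symbol newer than the array's. A gene was represented by its brightest measured probe. Spots well above background ranged from 77.6% to 85.4% per channel. With 2 arrays, their number limits the precision.

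The members, lists and rules were chosen with earlier results of these data known. Named genes were all probes of the members and the 5 genes nearest to Pdk4. Of each list they were the called or else the 2 brightest genes, and of muscle and brown fat the called markers. Genes outside this rule, apart from Rora, were named with their values known. Most are marked so, but Pdpr, Pcx, Ldha, Bckdk and Ucp1 are not marked where they are named. The calling was tested on simulated data. Alternatives covered offset, signal summary, normalisation, ratio source, dim filter, probe choice, fold threshold and single arrays. Linked probes were added after the data were seen. Promoter windows matched all 8 members by symbol. Tables and plots were made with pandas 2.3.3, numpy 2.4.6 and matplotlib 3.10.9 (Python 3.11.15).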

Additional observations from a re-analysis of the deposited data

How the results depend on the processing

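The Pdk4 ratio was 1.34 and rose to 1.48 with median centring; each array alone gave 1.26 to 1.42, where 32 to 55 genes and transcripts were called higher and 9 to 38 lower. Over all measured genes and transcripts, 29 were called higher and 7 lower. The lower count was 13 with an offset of 16, and the software's ratios and the series value table each gave 53 higher and 28 lower. A 1.5-fold rule gave 96 and 70. A 3-fold rule gave 7 and 0, and 0 member genes. The cause of the moves under other ratios and offsets was not tested. With 2 arrays, leaving one out cannot move a gene's mean by more than the SD between them, so small moves there say nothing of stability. The named Pdhx probe read 0.10 and the brighter linked probe −0.10. No paired analysis was possible because each genotype had 1 replicate. Signal over background limits Pdk3, Pdhx and the second Pdk4 probe.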
